A study of Homo sapiens with 4 samples.

Results

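RUNX1, RUNX2 and CBFA2T2 were followed in both directions of a map of RNA on chromatin: where their RNAs went, and which RNAs came to the regulatory elements at their genes. The map came from GRID-seq of K562, a human leukaemia cell line with the BCR-ABL1 fusion. In GRID-seq a linker joins an RNA to the DNA beside it in fixed nuclei. Cells with RUNX1 R320*, a premature stop in the C-terminal part of the protein, gave 2 libraries and cells with wild-type RUNX1 (WT) gave 2. Both genotypes had the same crosslinking, 45 minutes of 2 mM DSG and then 10 minutes of 3% formaldehyde. Neither the number of R320* clones nor separate cultures are stated in the labels. Members were chosen by name. A connection, meaning 1 RNA paired with 1 enhancer or promoter, belonged here when its RNA was one of the 3, or when the gene that the deposited table gives as nearest to the element was. This took 102 connections of the 3 RNAs and 56 connections at 24 elements, 151 in all because 7 are in both sets, out of 115357 connections of 2637 RNAs and 33948 elements.

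RUNX proteins bind DNA through the Runt domain together with CBFB, and the part after it recruits coactivators and corepressors. RUNX1 is needed for definitive blood formation, and RUNX2 is best known as the master factor of bone-forming cells. CBFA2T2 (MTGR1) belongs to the ETO family of corepressors, whose relative RUNX1T1 is joined to RUNX1 in the t(8;21) fusion of acute myeloid leukaemia.

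The deposited table has 1 score per connection and genotype, with no library kept apart, so no value below has a replicate error and no genotype difference has a test. A score is at least 1.2 or is listed as 0, and a 0 is called not listed here because it gives no measured level. R320* had 84992 listed connections with a median score of 1.73 and WT had 82454 with a median of 1.71, and 45.2% of all connections were listed in both. Over the 2137 RNAs listed in both genotypes the median ratio of connection numbers (R320* over WT) was 1.07. Of the erythroid and K562 markers, 6 of 16 were listed as RNAs, among them the globins HBG2 and HBE1 and the transferrin receptor TFRC. Of the megakaryocytic markers 1 of 6 was listed (ITGA2B), and of the myeloid, lymphoid, liver, epithelial and fibroblast or bone markers 0 were.

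**Figure D1:**
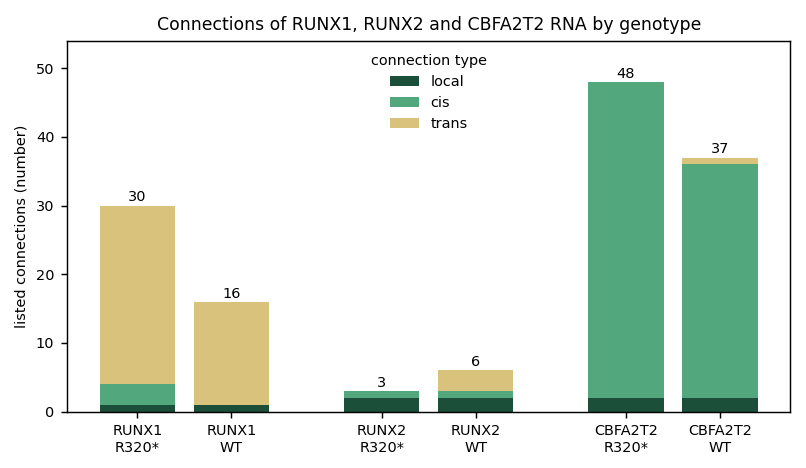
Number of listed connections (y axis) of RUNX1, RUNX2 and CBFA2T2 RNA in R320* and WT, 1 pooled value per genotype, with the part that is local, cis (same chromosome) and trans (another chromosome) stacked. RUNX1 RNA is mostly trans in both genotypes, and CBFA2T2 RNA has 1 trans connection, in WT.

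The RNAs differed in reach. RUNX1 RNA (chromosome 21, 34787801 to 35049302, GRCh38) was listed mostly on other chromosomes: 26 of its 30 connections in R320* and 15 of its 16 in WT were trans. CBFA2T2 RNA (chromosome 20, 33490096 to 33650030) stayed on its own chromosome in 48 of 48 connections in R320* and 36 of 37 in WT. RUNX2 RNA (chromosome 6, 45328330 to 45551082) had 3 connections in R320*, all near its gene, and 6 in WT, of which 3 were trans. Trans connections made up 13.6% of the whole table in R320* and 15.5% in WT, and the median RNA had 0%.

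The ratio of connection numbers was 1.88 for RUNX1, 0.50 for RUNX2 and 1.30 for CBFA2T2. RUNX2 alone reached 2-fold, with fewer in R320*, as did 1.59% of RNAs listed in both genotypes. None of the 3 reached 2-fold more, as 3.37% did. RUNX1 passed 2-fold with elements merged within 1 Mb (2.25), with the longer elements alone (2.11) and without the MALAT1 elements (2.14, chosen after seeing the data). With local and cis connections alone its ratio was 4, from 4 connections in R320* and 1 in WT. RUNX1 stayed below 2-fold with scores of 1.5 or more (1.58) and with trans connections alone (1.73). Shares over all RNAs were taken on the table as deposited, not under these alternatives. RUNX2 did not reach 2-fold fewer with scores of 1.5 or more (0.60), or with local and cis connections alone or without the MALAT1 elements (1 in both). With 3 and 6 connections, the RUNX2 ratio rests on few values. The part listed in both genotypes was 4.55% of 44 connections for RUNX1, 50.0% of 6 for RUNX2 and 63.5% of 52 for CBFA2T2. By type, 11.5% of trans, 51.4% of cis and 81.1% of local connections in the table were listed in both.

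RUNX1 RNA was scarcely listed at its own gene. Its only local element, an enhancer within the gene at 34807759 to 34808130, scored 1.32 in R320* and 1.23 in WT. Taking each RNA's highest local score, only 0.811% of 2344 RNAs were lower than RUNX1 in R320* and 0.167% of 2389 in WT. The medians were 2.44 in R320* and 2.4 in WT. Both RUNX1 scores lie close to the minimum for listing. In R320* alone, RUNX1 RNA also met a promoter and an enhancer of LINC01426, a long noncoding gene 32.6 to 41.6 kb beyond the 3′ end of RUNX1, with 1.24 and 1.26. A promoter of the carbonyl reductase gene CBR1, 1021 kb away, had 1.36 in R320*.

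Its trans connections formed short runs of neighbouring elements, and elements of 1 run are not independent. All 44 elements fall into 24 runs when those within 1 Mb are joined, 18 of them in R320* and 8 in WT. The 1 trans element listed in both genotypes was an enhancer near the keratin gene KRT2, with 1.67 in R320* and 1.55 in WT. A second enhancer of KRT2 had 2.06 in WT only.

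All other trans elements were listed in 1 genotype only. Those of R320* had their highest score, 2.20, at an enhancer inside TMEM241 on chromosome 18, whose promoter nearby had 1.55. A promoter of LINC01747 on chromosome 20 followed with 1.88. The beta-tubulin gene TUBB1, a platelet and megakaryocyte tubulin, had 1.86 at an enhancer and 1.69 at its promoter, and the enhancer of its neighbour CTSZ had 1.66. These form a run of 14.5 kb on chromosome 20. An enhancer of CMIP had 1.74 and an enhancer of ANKRD55 had 1.73. The longest other runs had 3 elements each, at AL031668.2 on chromosome 20 (1.28 to 1.67) and at AC017116.2, LINC00957 and DBNL on chromosome 7 (1.36 to 1.65). The replication helicase gene MCM3 had 1.64 at its promoter and 1.38 at an enhancer. At TGIF1, a homeodomain repressor gene, the score was 1.51.

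In WT only, 14 elements were listed, and these were trans without exception. The longest run covered 4 elements in 20.8 kb of chromosome 15, at ZFAND6 and at FAH, the last enzyme of tyrosine breakdown, with scores of 1.27 to 2.24. CARHSP1 on chromosome 16 had 2.25 at an enhancer and 2.03 at its promoter, and the promoter of NPTN had 2.22. The promoter of MALAT1, the abundant nuclear speckle RNA, had 1.94 and an enhancer beside it 1.76. IGF2R, the receptor that clears insulin-like growth factor 2, had 1.63 and 1.43, and the sialyltransferase gene ST3GAL5 had 1.64 and 1.27. Median trans scores were 1.63 in R320* and 1.76 in WT, so R320* had more trans connections but not higher scores.

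**Figure D2:**
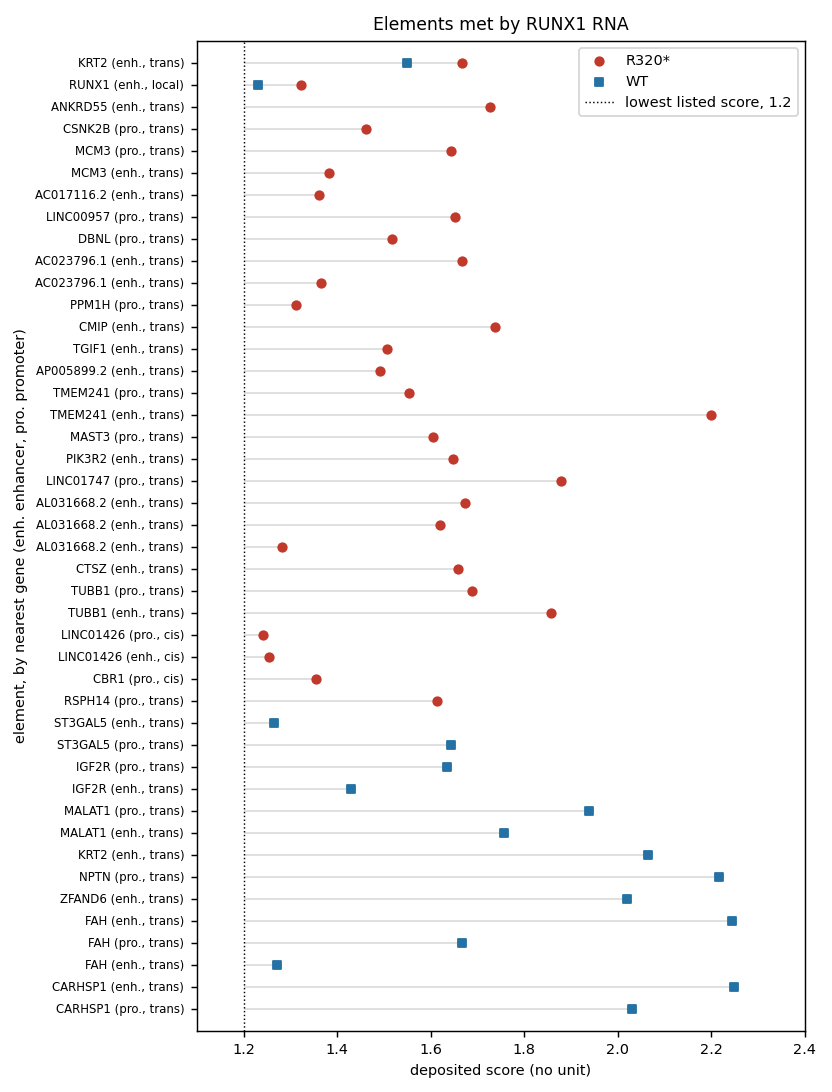
Deposited score (x axis, no unit) of RUNX1 RNA at each of the 44 elements it met, named by nearest gene, kind and connection type; circles are R320* and squares WT, 1 pooled value each, and a missing symbol means not listed. Only the top 2 elements carry both symbols, and the local score lies near the dotted line at 1.2.

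The elements that RUNX1 RNA met ranged from ones with no other RNA, 7 of 44, to the busiest of the table. The median was 3 other RNAs in either genotype, thus 4 with RUNX1 itself, against 2 RNAs at the median element of the table. The MALAT1 promoter and enhancer met 279 and 271 RNAs, ranks 1 and 2 of all elements. Next came the RSPH14 promoter with 51 other RNAs, the LINC00957 and DBNL promoters with 31 each, the AC017116.2 enhancer with 27 and the CSNK2B promoter with 19. At the 28 elements listed for RUNX1 RNA in R320* only, other RNAs had 178 connections in R320* and 153 in WT, with more in R320* at 13 elements, fewer at 7 and equal numbers at 3. At the 14 in WT only they had 393 in R320* and 407 in WT, with more in R320* at 2, fewer at 8 and equal numbers at 2. Other RNAs at the same elements thus leaned the same way as RUNX1 RNA in number. Their part in the RUNX1 values was not tested.

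RUNX2 RNA kept the same places near its gene in both genotypes. A promoter inside RUNX2 (chromosome 6, 45375790 to 45378739) had 1.71 in R320* and 1.76 in WT. An enhancer inside RUNX2 (45430421 to 45440611) had 1.68 in R320* and 1.61 in WT, and an enhancer inside SUPT3H, 402 kb away, had 1.63 in R320* and 1.74 in WT. Differences (R320* minus WT) lay between -0.11 and 0.08, against an SD of 0.247 over all 52089 connections listed in both. The distant contacts of RUNX2 RNA were in WT only and lay at or beside MALAT1: the promoter with 2.78, the enhancer with 2.6 and the promoter of neighbouring AP000769.3 with 1.36. Without these elements RUNX2 had 3 connections in each genotype.

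RUNX1 and RUNX2 RNA shared the MALAT1 promoter and enhancer in WT and neither was listed there in R320*. The numbers of all RNAs at these elements were nearly equal, 187 in R320* and 190 in WT at the promoter, and 181 and 185 at the enhancer. Only 98 of the 279 RNAs at the promoter (35.1%) were listed there in both genotypes. RUNX1 and CBFA2T2 RNA had 1 element in common, an enhancer near AL031668.2 (chromosome 20, 34127647 to 34130021), listed in R320* only with 1.67 for RUNX1 and 1.73 for CBFA2T2. This element had 4 RNAs in R320* and 2 in WT.

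CBFA2T2 RNA covered a broad stretch of chromosome 20 around its gene. Within 100 kb outside the gene all 15 elements were listed in both genotypes, from 100 to 500 kb 8 of 10, from 500 kb to 1 Mb 8 of 15, and beyond 1 Mb 0 of 9. Over connections listed in both, median scores were highest within 100 kb, 1.98 in R320* and 1.85 in WT. They were 1.58 in R320* and 1.44 in WT from 100 to 500 kb, and 1.59 and 1.36 from 500 kb to 1 Mb. The highest score on the chromosome in WT was at an enhancer 6.52 kb upstream of the gene, with 2.53 in R320* and 2.54 in WT. Its own promoter had 1.84 in R320* and 1.85 in WT.

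Scores of CBFA2T2 RNA were mostly higher in R320*. Of 33 connections listed in both genotypes, 26 had a higher score in R320* and 7 a lower one. All 33 are of 1 RNA and lie in 1 run of elements joined within 1 Mb, so they are not independent. The median difference was 0.144 (SD 0.202 over connections), against 0.0394 over the whole table. After that median was subtracted, 25 of 33 stayed above 0. The size of 0.5 used next was chosen after the values were seen: 4 of 33 were at least 0.5 higher in R320*, as were 3.55% of the table, and 0 were at least 0.5 lower, as were 2.07%.

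The widest of these was at the promoter of EIF2S2, a subunit of translation initiation factor 2, with 1.78 in R320* and 1.2 in WT, where it only just reached the list. RALY RNA at the same promoter had 2.78 in R320* and 2.68 in WT, and ITCH RNA had 1.47 and 1.52. The promoter of E2F1, a cell cycle transcription factor, 34.7 kb downstream of CBFA2T2, had 2.23 in R320* and 2.10 in WT. That of the DNA methyltransferase gene DNMT3B, on the upstream side, had 1.79 in R320* and 1.53 in WT.

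**Figure D3:**
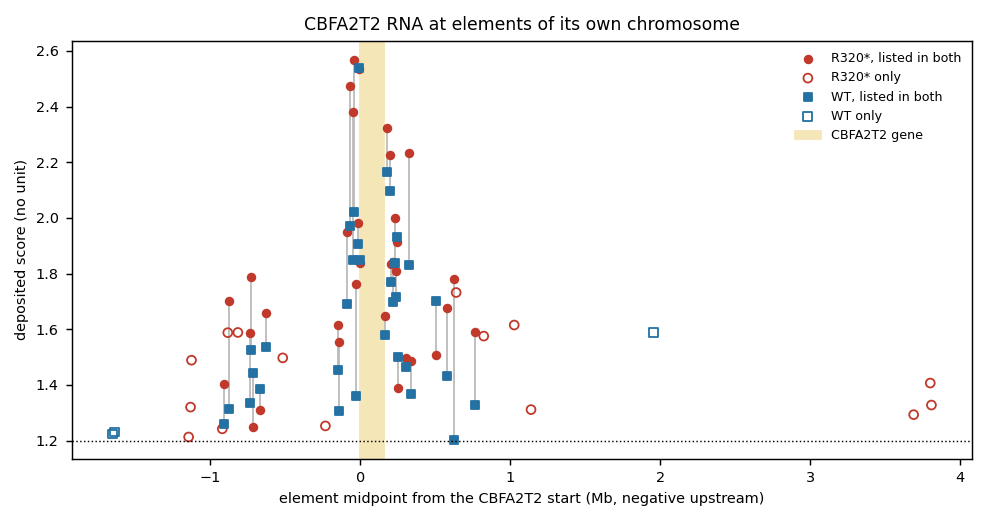
Deposited score (y axis, no unit) of CBFA2T2 RNA at elements of its own chromosome against distance of the element's midpoint from the gene's start (Mb). Red circles are R320* and blue squares WT, filled where listed in both genotypes and joined by a line, open where listed in 1, and the dotted line marks 1.2; in 26 of the 33 joined pairs the circle is above the square.

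The connections of CBFA2T2 RNA in R320* only numbered 15, of which 7 lay from 500 kb to 1 Mb from the gene and 6 beyond 1 Mb. The chromatin regulator gene ASXL1, 1125 to 1129 kb upstream, had 1.49 at an enhancer and 1.32 at its promoter. The ubiquitin ligase gene ITCH had 1.62 at its promoter, and AHCY, whose enzyme clears S-adenosylhomocysteine, had 1.58. MROH8 and MANBAL, 3527 to 3645 kb downstream, had 1.29 to 1.41. In WT only there were 4: MYLK2, DUSP15 and GDF5 on chromosome 20 with 1.22, 1.23 and 1.59, and an enhancer near AC091021.1 on chromosome 18 with 3.25. The last is the highest score of CBFA2T2 RNA in either genotype, and 8 other RNAs were listed at that element.

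Chromosome 20 as a whole had more same-chromosome connections in R320*. Without CBFA2T2, its RNAs had 1493 in R320* and 1113 in WT, a ratio of 1.34, against 1.05 over all chromosomes. The median ratio per RNA was lower, 1.14 over the 42 listed in both genotypes. Of these, 28 had more in R320*, 10 fewer and 4 equal numbers. The same-chromosome ratio of CBFA2T2, 48 in R320* and 36 in WT, was 1.33. At the elements CBFA2T2 RNA met, 40 other RNAs had 111 connections in R320* and 72 in WT, and their median score difference was 0.0759 (51 connections in both). On chromosome 21 the other RNAs had 736 in R320* and 597 in WT, a ratio of 1.23, and on chromosome 6 the ratio was 1.03. Whether these shifts account for the CBFA2T2 and RUNX1 numbers was not tested.

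RNAs most like each member were found by the Jaccard index, the number of elements met by both RNAs over the number met by either. For CBFA2T2 these were its neighbours RALY (0.387, 24 elements in common), ASXL1 (0.198, 16) and NOL4L (0.175, 11). For RUNX2 they were ADGRB1 and GRHL2 (0.429 each) and AP005230.1 (0.375), with 3 common elements each, all at MALAT1. ADGRB1 and AP005230.1 were listed in R320* only, so they shared 0 elements with RUNX2 within a genotype. For RUNX1 the indices were low: GNAS 0.0943, ZFAND6 0.0541 and DENND1A 0.0526. Of the 5 elements shared with GNAS RNA, 3 were at TUBB1 and CTSZ in R320*, and ZFAND6 shared the 4 elements at ZFAND6 and FAH in WT. DENND1A had 5 elements in common with RUNX1, but 0 within a genotype.

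The RUNX1 locus was met by RNAs that mostly differed between the genotypes, about as often as the whole table did for the same connection types. The deposited table gives RUNX1 as nearest gene for 14 elements, all typed as enhancers, at a distance of 0. Of these, 7 overlap the RefSeq span of the gene and 7 lie up to 896 kb upstream of it, and the table does not say which gene model its distances use. They carried 15 connections in R320* and 22 in WT, 7 of them in both, a ratio of 0.68. Over the 12973 nearest genes in both genotypes the median ratio was 1, with 11.6% at least 2-fold lower and 13.8% at least 2-fold higher. RUNX1 lies between these limits, as do RUNX2 with 0.69 and CBFA2T2 with 0.67. The lower number at RUNX1 was in trans connections, 10 in R320* and 17 in WT, while local and cis ones numbered 5 in each.

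One of the enhancers at RUNX1 (chromosome 21, 34881185 to 34890791) holds the proximal promoter of RUNX1, from which the shorter isoforms start. It met the DNA-binding factor FOXK1 in R320* only (2.08), NYAP2 and ARL15 in WT only (1.60 and 1.62), and the paraspeckle RNA NEAT1 in both, with 1.70 in R320* and 1.24 in WT. NYAP2 RNA was listed nowhere in R320* (0 connections, against 404 in WT). The gene's distal start, at the far end of the RefSeq span, lay 19324 bp from the nearest listed element. At RUNX2 a promoter element likewise holds the start of another gene, SUPT3H, a subunit of a histone acetyltransferase complex that runs in the opposite direction. The distal promoter of RUNX2 was 22488 bp from any listed element. The 250 bases before these 3 starts (RefSeq, GRCh38.p14) are shown because contacted elements hold the first 2 and not the third. Capitals mark the core RUNX motif TGTGGT or its complement ACCACA; the motif was searched on both strands of this window.
RUNX1 proximal promoter, chr21:34888700-34888949, minus strand: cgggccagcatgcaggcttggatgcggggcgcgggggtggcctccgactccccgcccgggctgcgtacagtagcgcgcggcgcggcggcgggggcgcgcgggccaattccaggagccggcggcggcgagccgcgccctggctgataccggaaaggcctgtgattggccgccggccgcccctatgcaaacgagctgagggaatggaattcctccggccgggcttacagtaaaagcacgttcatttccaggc
SUPT3H promoter inside the RUNX2 promoter element, chr6:45377935-45378184, minus strand: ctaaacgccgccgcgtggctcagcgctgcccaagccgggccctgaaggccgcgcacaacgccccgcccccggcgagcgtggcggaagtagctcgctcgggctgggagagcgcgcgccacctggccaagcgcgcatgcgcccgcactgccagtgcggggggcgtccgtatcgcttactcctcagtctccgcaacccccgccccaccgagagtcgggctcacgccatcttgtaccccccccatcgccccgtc
RUNX2 distal promoter, chr6:45328080-45328329, plus strand: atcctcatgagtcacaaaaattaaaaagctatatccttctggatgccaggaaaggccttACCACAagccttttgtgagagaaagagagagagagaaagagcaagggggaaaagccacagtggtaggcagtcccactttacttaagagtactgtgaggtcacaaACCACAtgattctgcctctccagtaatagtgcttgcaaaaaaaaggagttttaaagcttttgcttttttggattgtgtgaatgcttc

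The distal RUNX2 window holds 2 copies of the motif, and the other windows shown hold 0. Of all 35116 promoter windows of this length, 11.0% hold at least 1. Among promoters inside the elements met by RUNX1 RNA 3 of 38 hold it (7.89%), and among those met by CBFA2T2 RNA 3 of 25 (12%).

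Elsewhere at RUNX1, an enhancer inside the gene (34903972 to 34911870) kept both its RNAs. MORC3, an ATPase of nuclear bodies from the same chromosome, had 1.69 in R320* and 1.36 in WT, and the protein kinase C gene PRKCB 1.25 and 1.24. LINC02476 was listed beside RUNX1 RNA at the local enhancer, with 1.31 in R320* and 1.24 in WT. Upstream, the mitochondrial ribosomal protein gene MRPS6 had 1.30 in R320* and 1.27 in WT, and DSCR4 had 1.2 and 1.46. These RNAs, NEAT1 and RUNX1 itself are the 7 listed in both genotypes, and 6 of them had a higher score in R320*. Their median difference was 0.076, against a median of 0.0394 and an SD of 0.247 over the whole table. PRKCB (0.0111) and MRPS6 (0.0343), though higher in R320*, lay below the table's median. An enhancer 829 bp long (34897994 to 34898822) had no RNA in both genotypes: MALAT1 (1.34) and TTC3 (1.25) in R320*, and LMAN1 (1.22), MIR548XHG (1.26) and AC004936.1 (1.67) in WT.

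Globin RNA was listed at the far upstream end in WT only. An enhancer of 432 bp (35945458 to 35945889) met HBG2 with 1.61, HBE1 with 1.62, OR51B5 with 1.68 and AC104389.4 with 1.57. HBG2, HBE1 and OR51B5 come from neighbouring genes of the beta-globin region on chromosome 11, and whether they are separate contacts was not tested. Reads of HBG2 can also belong to its near copy HBG1. In R320* this element met ANKRD17 (1.98) alone. Over all elements the globin RNAs had more connections in R320*, HBE1 192 against 152 in WT and HBG2 196 against 154. Without this element RUNX1 had 14 connections in R320* and 18 in WT. Single contacts in 1 genotype also included MAGI1 (2.01), AL033504.1 (1.80), AC004949.1 (1.42) and the Rap exchange factor RAPGEF2 (1.25) in R320*. In WT they included C22orf34 (2.34), FARS2 (2.16), ZFPM2 (1.57), STX18-AS1 (1.55), AL713998.1 (1.27) and TMCC2 (1.25). AL713998.1 was itself far less listed in R320*, with 25 connections anywhere, against 337 in WT.

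**Figure D4:**
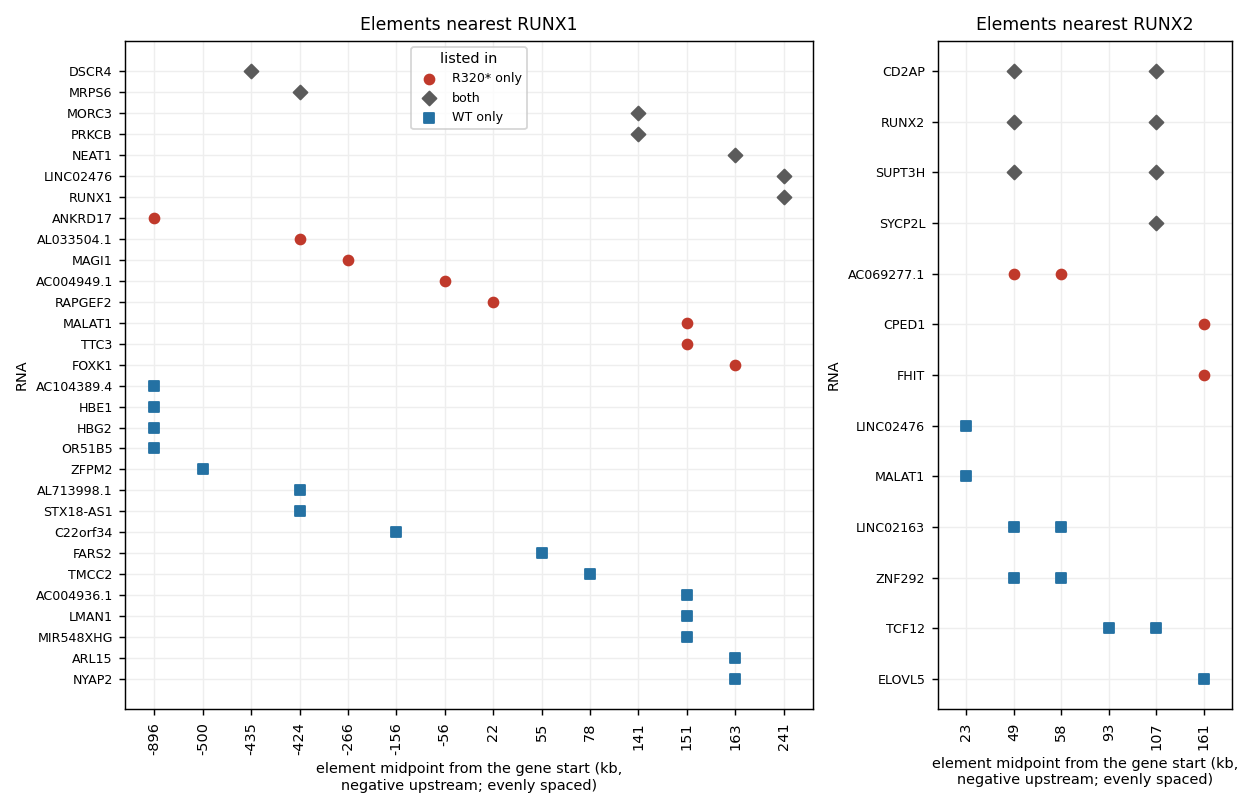
RNAs (rows) at each element (columns, midpoint in kb from the RefSeq gene start, negative upstream, evenly spaced) nearest RUNX1 and RUNX2. Red circles mark connections listed in R320* only, grey diamonds in both genotypes and blue squares in WT only; at RUNX1 8 are in R320* only, 7 in both and 15 in WT only.

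RUNX2 elements received 11 connections in R320* and 16 in WT, with 7 in both. All 7 came from chromosome 6: RUNX2 itself, SUPT3H, CD2AP and SYCP2L. SUPT3H RNA was higher in R320* at both elements, with 1.94 in R320* and 1.65 in WT at the promoter, and 1.80 and 1.5 at the enhancer. The gene models of SUPT3H and RUNX2 overlap, and no source used here says whether reads were counted by strand, so the 2 RNAs may be confused at these elements. CD2AP, an adaptor of the actin cytoskeleton, differed in direction, with 1.39 in R320* and 1.58 in WT at the promoter but 1.77 in R320* and 1.25 in WT at the enhancer. That enhancer difference of 0.52 was the only one of the 7 at or above 0.5.

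The 10 trans connections at RUNX2 were all in 1 genotype, where only 11.5% of trans connections in the whole table were listed in both. AC069277.1 met the promoter (1.74) and the enhancer next to it (1.88) in R320*, while LINC02163 met the same pair in WT (1.54 and 1.34). ZNF292, a zinc finger gene of chromosome 6, met that pair too, in WT only, with 1.90 and 1.42. TCF12, an E-protein that works with TAL1 and is on the list of RUNX partners, met a promoter (45421303 to 45421925, 1.55) and an enhancer (1.37) inside RUNX2 in WT only. Over the whole table TCF12 RNA had 1 trans connection in R320* and 10 in WT, so the difference was not particular to RUNX2. LINC02476 (1.46) and MALAT1 (1.22) met an enhancer nearer to the distal start in WT only. FHIT (1.45) and CPED1 (1.53) met an enhancer further into the gene in R320*. ELOVL5 RNA, which comes from chromosome 6 and is thus cis, met the same enhancer in WT (1.28).

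The 4 elements nearest CBFA2T2 met 1 or 2 RNAs each, and the median element of the table met 2. All 4 met CBFA2T2 RNA in both genotypes, and otherwise only RALY, an RNA-binding protein gene downstream. RALY RNA was at the promoter (1.66) and the enhancer 6.52 kb upstream (1.29), both in WT only. A window of the gene's span and 100 kb around it held 40 connections in R320* and 31 in WT. In turn, 24 of the 52 elements CBFA2T2 RNA met were also met by RALY RNA.

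Across all 3 loci 43 different RNAs were listed. Of the 32 with a contact there in 1 genotype only, 31 had connections elsewhere in the other genotype too, NYAP2 being the exception. Of all 2637 RNAs in the table, 2137 were listed in both genotypes. A single connection elsewhere is enough for this count, which also takes in AL713998.1 with 25 connections in R320* against 337 in WT. Whether the level of an RNA accounts for a contact missing at a RUNX locus was not tested.

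Partner and cofactor genes of RUNX1 that were listed as RNAs in both genotypes had similar numbers in each, as most RNAs of the table did. From a list of 47, 18 were listed as RNAs and 17 in both genotypes: 11 had more connections in R320*, 4 fewer and 2 equal numbers, with a median ratio of 1.05 and 0 past 2-fold in either direction. Of all RNAs listed in both genotypes, 3.37% had at least 2-fold more in R320* and 1.59% at least 2-fold fewer. A count of 0 among 17 thus does not set this list apart. CBFB, the DNA-binding partner of all RUNX proteins, had 36 connections in R320* and 43 in WT, and CBFA2T3, a relative of CBFA2T2, 33 and 38. The corepressor gene NCOR1 had 24 in R320* and 23 in WT. The acetyltransferase genes EP300 and CREBBP had 36 and 29 in R320* against 33 and 31 in WT. ETV6, an ETS repressor gene of chromosome 12, was listed in WT only, with 25 connections. TBL1XR1, a subunit of the NCOR complex, had most, 92 in R320* and 84 in WT. KMT2A had 50 in R320* and 60 in WT, HIPK2 51 and 47, and LMO2 48 and 37.

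**Figure D5:**
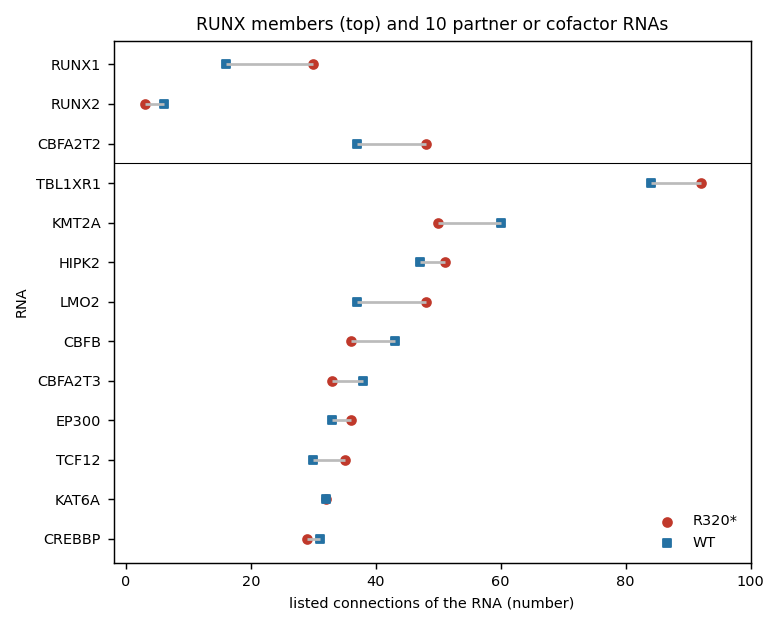
Listed connections per RNA (x axis) in R320* (circles) and WT (squares), 1 pooled value each, for the 3 members above the line and the 10 partner or cofactor RNAs with most connections below it. TBL1XR1 has most, 92 in R320* and 84 in WT, and RUNX1 has the widest ratio among the members with more in R320*.

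As nearest genes of elements, 32 of the list were in both genotypes, 11 with more connections in R320*, 12 with fewer and 9 with equal numbers, and the median ratio was 1. RUNX3 elements had 1 connection in R320* and 4 in WT. Other genes of the list also differed at least 2-fold, in both directions. Over all nearest genes in both genotypes, 13.8% had at least 2-fold more in R320* and 11.6% at least 2-fold fewer. Of all listed pairs between different genes of the list and the members, the 2 TCF12 contacts were the ones that touched a member. The others joined CBFA2T3 and ZFPM1, which are neighbours on chromosome 16.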

How the data were processed

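GRID-seq was run on 4 K562 libraries, 2 with RUNX1 R320* and 2 with wild-type RUNX1, grouped by the titles in the labels. Per the submitters' processing notes, cutadapt 1.12, BWA and bedtools were used with the hg38 build. The authors deposited 1 score per connection and genotype, with how it was computed and how libraries were pooled not given in the sources used here; depth is unknown, so no interval or test is given. A deposited difference column equals R320* minus WT within 1e-05. Connections were counted per RNA and per nearest gene with pandas 2.3.3 (Python 3.11.15), and score differences were taken over connections listed in both genotypes. A 2-fold ratio and a score difference of 0.5 were the sizes used to describe the whole table. The counting of ratios was tested on simulated data. Changes were simulated only in RNAs with more connections than RUNX1 or RUNX2 had, and were larger than the deposited ratios of the members. The counting was thus not tested at the numbers of RUNX1 and RUNX2. Gene spans and promoter sequences are those of RefSeq for GRCh38.p14, the same primary assembly as hg38. Starts of elements, taken as 0-based, were raised by 1 for printing. Members and lists were chosen with earlier results of these data known. Named items were all elements at the members, the RNAs listed there, the elements met by member RNAs in both genotypes, with the highest scores or in the longest runs, the 3 RNAs of highest Jaccard index and up to 10 partner genes by connection number; E2F1, DNMT3B, NCOR1, ETV6, RUNX3 and further contacts in 1 genotype were named after their values were seen. Alternatives were a score minimum of 1.5, merging within 1 Mb, connection types apart, different RNAs in place of connections, the longer-element block of the 2 blocks in the table, centred score differences, and a window of 100 kb around each gene. Some named items are not reported here.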

Additional observations from a re-analysis of the deposited data

How the results depend on the processing

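Values are ratios of connection numbers, R320* over WT, unless said otherwise. Across the alternatives, 36 values stayed within 1.5 times of the reported ratio, or within 1 SD of the reported score difference, 4 moved further and 3 changed direction. For RUNX1 RNA the ratio was 4 with local and cis connections alone (4 in R320*, 1 in WT) and 1.58 to 2.25 under the others. For RUNX2 RNA it was 1.00 with local and cis alone and 1.00 without the MALAT1 elements, an alternative chosen after seeing the data, and 0.60 with scores of 1.5 or more. For CBFA2T2 RNA merging within 1 Mb turned it to 0.67 (2 runs in R320*, 3 in WT), since nearly all its elements form 1 run. With elements taken from the gene's span and 100 kb around it, the CBFA2T2 locus turned to 1.29 (40 in R320*, 31 in WT), because this window takes in neighbouring genes' elements, and RUNX1 moved to 1.00 (12 in each). At RUNX1 the ratio was also 1.00 with local and cis connections alone (5 in each), and at RUNX2 with scores of 1.5 or more (8 in each). The median score difference of RUNX1 RNA (2 connections) moved to 0.0657 when centred on the table's median, and that of the CBFA2T2 elements turned to -0.00608 (4 connections). Trans ratios of RUNX2 and CBFA2T2 RNA could not be formed, since R320* had 0. No paired analysis was possible because the deposited columns are pooled over libraries and carry no replicate number, and for the same reason no library could be left out. Scores near 1.2 can leave the list with small changes, so contacts in 1 genotype only are uncertain at this unknown depth.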
